A study of Mus musculus with 24 samples.

Results

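Arntl (the gene for BMAL1), Clock, Npas2 and Rora are the activators of the circadian clock, and their transcripts are described here in the tibialis anterior (TA) muscle of mice. They were chosen by name, as 4 of the 55487 genes listed in the count tables, and all 4 were found by their Ensembl identifiers in GENCODE M21 (GRCm38). Arntl (ENSMUSG00000055116) lies at chr7:113207465-113314126 and Clock (ENSMUSG00000029238) at chr5:76209868-76304792. Npas2 (ENSMUSG00000026077) lies at chr1:39193731-39363236 and Rora (ENSMUSG00000032238) at chr9:68653786-69388246.

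BMAL1 pairs with CLOCK, or with the CLOCK paralog NPAS2, and the pair binds E-box sequences to switch on Per, Cry, Nr1d1 and other genes, whose products later repress the pair or the Arntl gene. RORA is a nuclear receptor that binds RORE sequences and raises Arntl transcription, and the repressors NR1D1 and NR1D2 bind the same sequences. In skeletal muscle the clock runs within the fibers, where it times genes of glucose and fat use, and Arntl transcripts peak at the time of day when Per transcripts are low.

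The study asked how near-infrared light given before exercise, called photobiomodulation therapy (PBMT), acts on rested and on exhausted muscle. Poly(A) RNA of the left TA muscle was sequenced from 24 wild-type C57BL/6J male mice aged 5 to 7 weeks, 6 in each of 4 groups. Both PBMT groups were shaved, anesthetized and exposed for 20 min to 830 nm light at 25 mW/cm2 (30 J/cm2), with head and eyes uncovered. Sedentary PBMT mice were dissected 24 h later, and fatigued PBMT mice began their run 24 h later. Both control groups were shaved and kept under anesthesia for 20 min without light. Sedentary mice did not run, and fatigued mice ran on a treadmill to exhaustion and were dissected at once. The study reports longer runs in PBMT mice than in controls at that time. Light and length of run therefore cannot be told apart in PBMT against control of fatigued muscle, nor in values that use it. All sedentary mice belong to 1 sequencing project and all fatigued mice to the other, so state, run and project cannot be told apart. The hour of dissection, on which the level of a clock transcript depends, is not given in the sources used here, so a difference in hour between groups could not be tested.

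The authors deposited 1 whole-number count per gene and mouse. Among sedentary mice, totals lay between 43271093 and 46904076 in controls and ran from 46327516 to 52775844 in PBMT mice. Totals ran from 56792327 to 68726155 in fatigued controls and from 53122528 to 68566029 in fatigued PBMT mice. Levels are given in CPM, which relates a gene's count to the total of its mouse after TMM scaling over all 24 mice. The tissue label was checked against 10 genes of fast muscle fibers, of which none was at 0 in any mouse and Myh4 was the most abundant, with a mean of 37924 CPM. Their summed level was 151745 ± 23007 CPM in sedentary controls, 158970 ± 13759 CPM in sedentary PBMT mice, 200662 ± 17149 CPM in fatigued controls and 195503 ± 16070 CPM in fatigued PBMT mice (SD, n = 6 each).

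Sedentary control replicate 4 stood apart from its group. It had 3.25% of its counts on the mitochondrial chromosome, where the group's median was 16.2%, and its root mean square distance from the group mean in log2 CPM was 0.405, against 0.187 to 0.226 in the other 5. The next farthest of the 24 mice was fatigued PBMT replicate 5, at 0.377. Log2 fold changes of the 4 activators that use the sedentary controls, and those of some other clock genes, are therefore also given without replicate 4, while levels and marker sums are given with it.

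Arntl, the partner needed by each activator pair, ran from 6.11 to 8.28 CPM in sedentary controls (median 7.08) and from 8.62 to 13.0 CPM in sedentary PBMT mice (median 9.68). It ran from 5.19 to 12.8 CPM in fatigued controls (median 8.29) and from 7.55 to 14.8 CPM in fatigued PBMT mice (median 12.5). All 6 sedentary PBMT mice were above the highest sedentary control, a separation found in this direction in 0.205% of the 14177 genes tested. In fatigued muscle the groups overlapped, with 3 of 6 PBMT mice above the highest control, and the control mice were spread more widely than in sedentary muscle. Of 3 other scalings, tried after seeing the data, TMM within the project and the size factors of DESeq2 also put 6 of 6 above. By the total count alone 5 of 6 mice were above, with the lowest PBMT mouse at 8.30 and the highest control at 8.38 CPM, and 0.106% of all genes were separated in this direction.

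In sedentary muscle Arntl averaged 7.10 ± 0.992 CPM over the controls and 10.3 ± 1.62 CPM over the PBMT mice (SD, n = 6 each). PBMT over control amounted to 0.54 in log2 fold change (standard error 0.116, 95% confidence interval 0.29 to 0.78), or 1.45 times the level of controls. This did not pass the adjustment in edgeR (adjusted p = 0.144 over 14177 genes, unadjusted p = 0.000264, rank 26). The exact permutation test over the 6 and 6 mice gave a two-sided p of 0.00216, the smallest it can give. DESeq2 called Arntl at the same log2 fold change (adjusted p = 0.00752), and limma voom with sample quality weights called it at 0.48 (adjusted p = 0.0466). Over the 9 alternatives that kept every mouse the adjusted p ran from 0.00752 to 0.595. Without sedentary control replicate 4 the log2 fold change was 0.58, with an edgeR adjusted p of 0.0719.

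For fatigued muscle Arntl averaged 8.96 ± 2.98 CPM over the controls and 12.2 ± 2.71 CPM over the PBMT mice (SD, n = 6 each). At 0.44 (standard error 0.218), this log2 fold change missed the threshold (edgeR adjusted p = 1.00, unadjusted p = 0.0622, exact permutation p = 0.0866). Averaged over both states the log2 fold change of Arntl was 0.49 (standard error 0.127), 0.51 without sedentary control replicate 4. That average, ranked 10 of 15108 genes by its unadjusted p of 0.000727 in edgeR, had an adjusted p of 0.987. The PBMT effect in fatigued muscle minus that in sedentary muscle was -0.09 (standard error 0.253, edgeR adjusted p = 0.971), with a 95% confidence interval from -0.61 to 0.43, so neither a smaller nor a larger effect in fatigued muscle was detectable. It was -0.14 without sedentary control replicate 4, but its sign turned with limma voom (0.18) and without any of 3 single mice (up to 0.04). The fatigued value ran from 0.33 to 0.66 over all refits.

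Clock encodes the DNA-binding partner of BMAL1. It ran from 21.2 to 33.8 CPM in sedentary controls (median 28.9) and from 31.6 to 39.6 CPM in sedentary PBMT mice (median 36.9). It ran from 18.6 to 25.9 CPM in fatigued controls (median 21.8) and from 16.5 to 37.8 CPM in fatigued PBMT mice (median 23.0). Within sedentary muscle 4 of 6 PBMT mice were above the highest control, and the lowest value belonged to control replicate 4. Within fatigued muscle the PBMT mice covered the whole range of the controls, with replicate 2 at 37.8 CPM far above the other 5, which ended at 24.9 CPM.

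With PBMT, Clock in sedentary muscle had a log2 fold change of 0.35 (standard error 0.101, unadjusted p = 0.00303 and adjusted p = 0.349 in edgeR), from 28.3 ± 4.23 to 36.0 ± 3.35 CPM (SD, n = 6 each). The exact permutation test of Clock gave p = 0.0087. Without sedentary control replicate 4 the log2 fold change was 0.28 (edgeR adjusted p = 0.268). In fatigued muscle Clock averaged 22.2 ± 2.77 CPM over the controls and 24.1 ± 7.34 CPM over the PBMT mice (SD, n = 6 each), a log2 fold change of 0.12 (standard error 0.164, edgeR adjusted p = 1.00). Without fatigued PBMT replicate 2 the sign turned, to -0.05. The average over both states was 0.23 (0.20 without sedentary control replicate 4), and the difference between the states was -0.23 (-0.16 without that mouse), with edgeR adjusted p-values of 0.987 and 0.946. Without fatigued PBMT replicate 2 they were 0.14 and -0.40, without fatigued PBMT replicate 1 the difference was -0.14, and with limma voom it was -0.12.

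Npas2, which encodes the paralog that can take the place of CLOCK, was the scarcest of the 4 genes. It had between 2 and 14 counts in sedentary controls and between 9 and 33 in sedentary PBMT mice, or 0.0441 to 0.294 CPM (median 0.161) and 0.193 to 0.674 CPM (median 0.348). In fatigued controls it had between 4 and 60 counts (0.0723 to 0.915 CPM, median 0.254), and in fatigued PBMT mice between 15 and 88 counts (0.293 to 1.35 CPM, median 0.489). In both states the PBMT mice began above the lowest controls and the groups overlapped. In sedentary muscle 4 of 6 PBMT mice were above the highest control, and in fatigued muscle 1 of 6 was. Its counts lay near the minimum of 10 used by the filter, which 1 sedentary control and 5 sedentary PBMT mice reached, so Npas2 was tested in sedentary muscle largely through the group in which it was higher.

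The log2 fold change of Npas2 with PBMT was 1.32 in sedentary muscle (standard error 0.428, 95% confidence interval 0.42 to 2.23, unadjusted p = 0.00691 and adjusted p = 0.464 in edgeR, exact permutation p = 0.0152). Without sedentary control replicate 4 it was 1.17 (edgeR adjusted p = 0.413). In fatigued muscle Npas2 had 0.85 (standard error 0.520, edgeR adjusted p = 1.00, exact permutation p = 0.0996), and it was 0.45 without fatigued PBMT replicate 5, the mouse at 1.35 CPM. Without fatigued control replicate 3, the control at 0.915 CPM, it was 1.45. The average of both states was 1.09 (edgeR unadjusted p = 0.00503, adjusted p = 0.987), or 1.01 without sedentary control replicate 4, and the difference between them was -0.47 with an interval from -1.92 to 0.97, or -0.32 without that mouse. It was -0.87 without fatigued PBMT replicate 5, and its sign turned without fatigued control replicate 3 (0.12) and with limma voom (0.03). At these counts a difference of that width between the states was not detectable.

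Rora, the receptor gene, was the most abundant of the 4 and, before any refit, had the smallest log2 fold changes with PBMT. In fatigued muscle Clock was under Rora with the replicate block and the length trend removed (Clock at 0.08). It was also under Rora without fatigued PBMT replicate 2 (Clock at -0.05). Rora ran from 94.4 to 144 CPM in sedentary controls (median 117) and from 85.8 to 148 CPM in sedentary PBMT mice (median 141). It ran from 95.3 to 138 CPM in fatigued controls (median 131) and from 100 to 150 CPM in fatigued PBMT mice (median 140). The groups overlapped in both states, and in 3 of the 4 groups a single mouse lay well under the other 5: sedentary PBMT replicate 2, fatigued control replicate 3 and fatigued PBMT replicate 5.

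Rora averaged 117 ± 17.7 CPM over the sedentary controls and 132 ± 23.2 CPM over the sedentary PBMT mice (SD, n = 6 each), a log2 fold change of 0.18 (standard error 0.126, edgeR adjusted p = 0.703, exact permutation p = 0.281). It was 0.14 without sedentary control replicate 4, 0.28 without sedentary PBMT replicate 2 and 0.08 with the replicate block and the length trend removed. In fatigued muscle Rora averaged 125 ± 16.0 CPM over the controls and 135 ± 18.4 CPM over the PBMT mice (SD, n = 6 each), a log2 fold change of 0.10 (standard error 0.105, edgeR adjusted p = 1.00, exact permutation p = 0.422), or 0.04 without fatigued control replicate 3 and 0.17 without fatigued PBMT replicate 5. Its average over both states was 0.14 (0.12 without sedentary control replicate 4), with a 95% confidence interval of -0.04 to 0.32, and the difference between the states was -0.07 (edgeR adjusted p = 0.966). That average ran from 0.09 to 0.19 over all refits, and the difference was -0.04 without sedentary control replicate 4 and -0.18 without sedentary PBMT replicate 2.

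**Figure D1:**
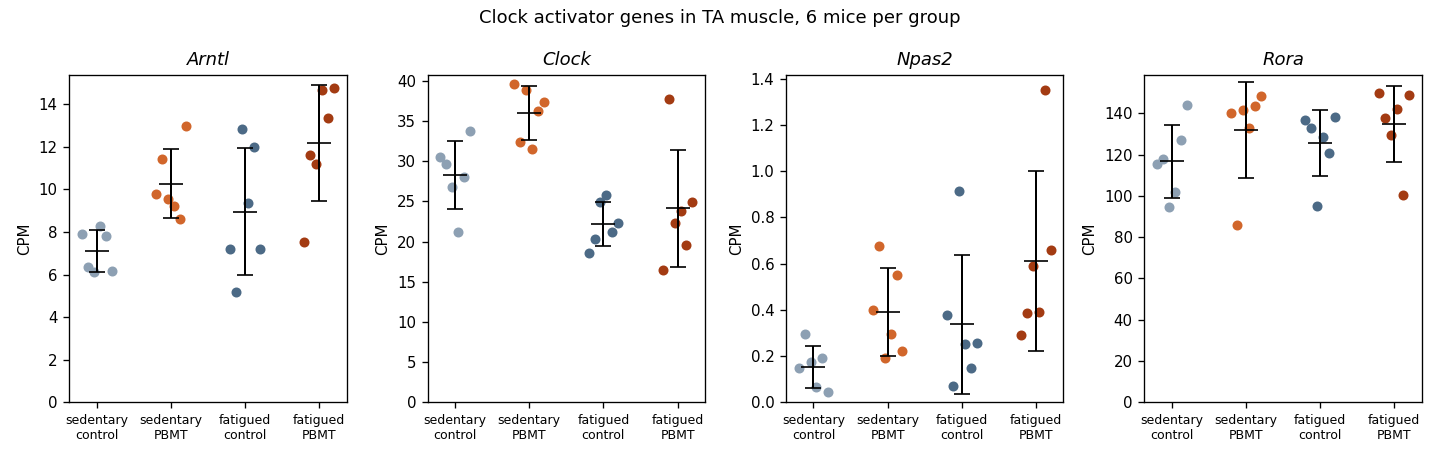
Level of each clock activator gene in CPM (vertical axis, starting at 0) for every mouse of the 4 groups, with points for mice and bars for the mean ± SD of 6 mice. The Arntl points of sedentary PBMT mice, from 8.62 to 13.0 CPM, all lie above those of sedentary controls, which end at 8.28 CPM, and by total count alone 5 of 6 do; the single high Clock point at 37.8 CPM is fatigued PBMT replicate 2.

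The order of the group means was shared by 3 of the 4 genes. The mean of Arntl was lowest in sedentary controls, followed by fatigued controls, sedentary PBMT mice and fatigued PBMT mice, and Rora had the same order, as had Npas2, from 0.153 ± 0.0910 through 0.337 ± 0.302 and 0.389 ± 0.191 to 0.611 ± 0.388 CPM (SD, n = 6 each). For Clock the order was fatigued controls, fatigued PBMT mice, sedentary controls and sedentary PBMT mice. Neighbouring groups in these orders overlapped for Arntl, Clock, Npas2 and Rora alike.

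Levels can be compared between genes per length of transcript. In CPM per kb of summed exon length, sedentary controls had 8.94 ± 1.35 of Rora, 2.06 ± 0.308 of Clock, 0.944 ± 0.132 of Arntl and 0.0320 ± 0.0190 of Npas2 (SD, n = 6 each). In the same unit, fatigued PBMT mice had 10.3 ± 1.41 of Rora, 1.76 ± 0.534 of Clock, 1.62 ± 0.361 of Arntl and 0.128 ± 0.0810 of Npas2 (SD, n = 6 each). So Rora was the most and Npas2 the least abundant in each of these groups, and Arntl and Clock were within a standard deviation of each other in fatigued PBMT mice. Per kb of the longest transcript, Arntl was at 3.05 ± 0.680 and Clock at 2.48 ± 0.753 CPM in fatigued PBMT mice (SD, n = 6 each), which turns their order, while in sedentary controls Clock stayed the higher at 2.91 against 1.78.

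Beside the activators, Arntl2, a paralog of Arntl, was at 0.110 CPM per kb in sedentary controls, under Arntl. Rorb had at most 0.245 CPM in any mouse and was not tested. With PBMT the log2 fold change of Arntl2 was 0.38 in sedentary and 0.52 in fatigued muscle (standard errors 0.305 and 0.334), and it passed in neither by edgeR (adjusted p = 0.737 and 1.00).

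Across the 4 activators, the comparison of PBMT with control in sedentary muscle gave 4 positive log2 fold changes, where 49.6% of all genes were positive, with a median of 0.44 against -0.0019 over all genes. The filter favoured a positive value of Npas2, which entered the test largely through the group in which it was higher, and without it 3 of 3 were positive with the value of Clock, 0.35, in the middle. At an adjusted p under 0.05, edgeR called 0 of the 4, and it called 4 of 14177 genes in all (0.0282%), 0.0212% higher and 0.00705% lower. At an unadjusted p under 0.05 edgeR had 3 of the 4 higher (Arntl, Clock and Npas2) and 0 lower, where 3.33% of genes were higher and 4.3% lower. Without Npas2 the count is 2 of 3. DESeq2 and limma voom each called 1 of the 4, Arntl, and higher with PBMT they called 0.135% and 0.0776% of the genes they tested, and lower 0.232% and 0.254%.

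Counted the same way, the fatigued comparison also gave 4 positive log2 fold changes, where 52% of all genes were positive, with a median of 0.28 against 0.0041 over all genes. There edgeR called 0 of the 4 and 0 of all 14574 genes tested (0%), and at an unadjusted p under 0.05 it had 0 of the 4, where 1.08% of genes were higher and 0.501% lower. DESeq2 and limma voom called 0 of the 4 as well. In fatigued muscle Arntl, Clock, Npas2 and Rora thus had the same sign as in sedentary muscle, and none of the 4 passed by edgeR, DESeq2 or limma voom.

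The average over both states, which asks for a PBMT effect shared by sedentary and fatigued mice, had a median of 0.36 over the 4 activators. For it edgeR called 0 of the 4 and 0 of 15108 genes (0%), and at an unadjusted p under 0.05 it had 3 of the 4 higher, again Arntl, Clock and the scarce Npas2, where 1.87% of genes were higher and 1.96% lower. Positive values made up 4 of 4 here and 49.6% of all genes. The difference between the states had a median of -0.16 over the 4, all negative, where 53.7% of genes were positive. With limma voom Arntl and Npas2 were positive instead, and with the length trend removed Rora was. Here edgeR called 0 of the 4 activators, and 0 at an unadjusted p under 0.05, against 0.00662% of genes called, and 2.95% higher and 1.45% lower without adjustment. DESeq2 and limma voom called 0 of the 4 for the average and 0 for the difference. The average and the difference use the same mice as the separate comparisons and are no further evidence.

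Clock differed between fatigued and sedentary muscle. After PBMT it fell from 36.0 ± 3.35 CPM in sedentary mice to 24.1 ± 7.34 CPM in fatigued mice (SD, n = 6 each), a log2 fold change of -0.58 (standard error 0.139, 95% confidence interval -0.86 to -0.29, edgeR adjusted p = 0.00329). In 5 of 6 fatigued mice it was under the lowest sedentary mouse, and replicate 2 was the exception (exact permutation p = 0.0108). It was the 1 activator called of 4, where edgeR called 26.8% of 15108 genes (14.1% higher and 12.7% lower), so calls were common in this comparison. Leaving out each mouse in turn gave -0.75 to -0.48 for Clock, with adjusted p-values up to 0.0113, and the other settings gave -0.60 to -0.56. The log2 fold changes of Arntl (0.25), Npas2 (0.66) and Rora (0.03) in this comparison had edgeR adjusted p-values of 0.323, 0.321 and 0.882. Npas2 was at 0.26 without fatigued PBMT replicate 5. Of the 4, 3 were positive, against 50.3% of genes, or 2 without sedentary PBMT replicate 2, when Rora was at -0.07. Without adjustment Clock was the 1 with a p under 0.05, against 19.2% of genes higher and 18.3% lower.

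In controls the log2 fold change of Clock from sedentary to fatigued mice was -0.35 (standard error 0.139, edgeR adjusted p = 0.0780). Of the fatigued mice 3 of 6 were under the lowest sedentary mouse, which was replicate 4. By total count alone, and by the size factors of DESeq2, 2 of 6 were. Without sedentary control replicate 4 the log2 fold change was -0.43 and passed (edgeR adjusted p = 0.0292). It also passed with limma voom at -0.44 (adjusted p = 0.00338), and its adjusted p ran from 0.00338 to 0.177 over the 8 alternatives that kept every mouse. Here edgeR called 0 of the 4 activators, DESeq2 called 0 and limma voom 1, while edgeR called 18.6% of genes (9.1% higher and 9.49% lower). At an unadjusted p under 0.05 edgeR had 1 lower (Clock, against 17% of genes) and 1 higher (Npas2, against 15.2%), the latter at 1.13 (standard error 0.528, edgeR adjusted p = 0.138), or 0.98 without sedentary control replicate 4, 0.54 without fatigued control replicate 3 and 0.59 with limma voom. The log2 fold changes of Arntl (0.34) and Rora (0.10) had edgeR adjusted p-values of 0.203 and 0.604, and were 0.38 and 0.06 without sedentary control replicate 4. Without fatigued control replicate 3 they were 0.21 and 0.18, and with limma voom Arntl was at 0.18. Positive values were 3 of 4, against 48.4% of genes.

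Both comparisons of state set the projects against each other, so the lower Clock level cannot be told apart from a difference between the projects or in the hour of dissection. The share of counts on the mitochondrial chromosome also differed, with 13.85 to 17.09% in sedentary and 10.68 to 12.1% in fatigued mice after PBMT. In controls its median was 16.2% in sedentary and 11.2% in fatigued mice. The part of this share in the Clock result was not tested. Among PBMT mice, 3 of the 10 clock repressors were also called lower in fatigued than sedentary muscle, Nr1d1 (-0.51), Nr1d2 (-0.34) and Bhlhe40 (-0.56). There 2 repressors were called higher, Per2 (0.66) and Cry2 (0.93). In edgeR the adjusted p-values of these 5 were 0.00258, 0.0121, 0.00597, 0.0208 and 0.000107, and over all genes edgeR called 12.7% lower and 14.1% higher. Of the 42 further clock genes listed, 40 were tested, and edgeR called 9 higher and 8 lower in fatigued than sedentary muscle after PBMT, against 14.1% and 12.7% of all genes. In controls it called 5 higher and 4 lower of the 40, against 9.1% and 9.49%.

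The repressor genes are the targets of the activators, and in sedentary muscle they did not move as a block with PBMT. Of the 10, 4 had positive log2 fold changes and the median was -0.10. Nr1d1, the repressor of Arntl, had 0.44 (standard error 0.077), from 94.2 ± 8.73 to 127 ± 11.8 CPM (SD, n = 6 each). Bhlhe40, a repressor that competes for E-boxes, also had 0.44 (standard error 0.085), from 107 ± 11.4 to 144 ± 14.1 CPM (SD, n = 6 each). In both genes all 6 PBMT mice lay above the highest control, as in 0.205% of the 14177 genes tested. Whether this holds under other scalings was not tested for these genes. They just missed the threshold in edgeR (adjusted p = 0.0562 and 0.0896), with ranges over the alternatives that kept every mouse of 0.000194 to 0.482 for Nr1d1 and 0.00190 to 0.586 for Bhlhe40. Without sedentary control replicate 4, Nr1d1 passed at 0.45 (edgeR adjusted p = 0.0283) and Bhlhe40, at 0.44, did not (edgeR adjusted p = 0.0616).

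Among the other repressor genes in sedentary muscle, Bhlhe41 had a log2 fold change of 0.27 and Nr1d2 had 0.08. Per1 had -0.53 (standard error 0.157, edgeR unadjusted p = 0.00383, adjusted p = 0.351, and -0.54 without sedentary control replicate 4), Per2 -0.35, Ciart -0.35, Cry2 -0.16, Per3 -0.15 and Cry1 -0.05. At an unadjusted p under 0.05 edgeR had 3 repressors higher (Nr1d1, Bhlhe40 and Bhlhe41) and 1 lower (Per1), against 3.33% and 4.3% of genes. After adjustment edgeR called 0 of the repressors. DESeq2 and limma voom called Nr1d1 and Bhlhe40, where they called 0.135% and 0.0776% of the genes they tested higher. In fatigued muscle Bhlhe40 had 0.51 (standard error 0.184, edgeR unadjusted p = 0.0169, adjusted p = 1.00), and the other 9 ran from -0.15 to 0.31.

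Dbp, Tef, Hlf and Nfil3 encode the factors that bind D-box sequences, the first 3 as activators and NFIL3 as a repressor. In sedentary muscle all 4 had negative log2 fold changes with PBMT, with a median of -0.19. Nfil3 alone passed in edgeR, where it fell from 31.9 ± 3.47 to 16.3 ± 2.80 CPM (SD, n = 6 each), a log2 fold change of -0.96 (adjusted p = 0.000925) that was already known when the genes were chosen. It passed too without sedentary control replicate 4 (edgeR adjusted p = 0.000599). Dbp, a direct E-box target of the activators, had -0.27 (edgeR unadjusted p = 0.0461, adjusted p = 0.648, and -0.15 without sedentary control replicate 4), Tef -0.10 and Hlf -0.01. In fatigued muscle Dbp had -0.18, Hlf -0.05, Tef 0.01 and Nfil3 0.14, with edgeR adjusted p-values of 1.00.

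The difference between states was called in edgeR for Nfil3 and for no other gene tested, at 1.11 (standard error 0.161, adjusted p = 0.0037), so for none of the 4 activators. It was 1.07 and not called (edgeR adjusted p = 0.115) with the replicate number as a block and the length trend removed.

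**Figure D2:**
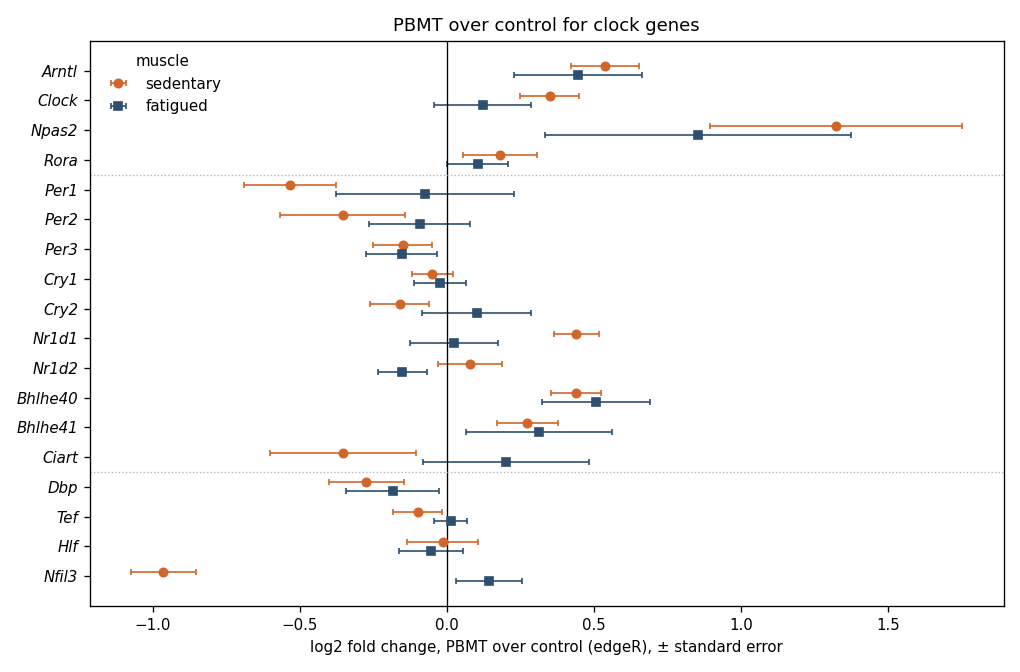
Log2 fold change of PBMT over control (horizontal axis, edgeR, bars for the standard error) for the 4 activators, 10 repressors and 4 D-box factors, with circles for sedentary and squares for fatigued muscle, 6 mice per group. Points of all 4 activators lie to the right of 0 in both states, while among the 10 repressors 4 do in sedentary muscle, and Nfil3 lies at -0.96.

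Further clock genes were counted by list, with values for those past a threshold. Of the 7 coregulators of the activators, 6 had positive log2 fold changes with PBMT in sedentary muscle (median 0.14), against 49.6% of all genes. There were 2 higher at an unadjusted p under 0.05, against 3.33%, with Ep300 at 0.25 and Ncor1 at 0.18 (edgeR unadjusted p = 0.0481 and 0.0461, adjusted p = 0.648 for both). Among the 4 further rhythmic output genes, Wee1 had -0.52, Tsc22d3 -0.39 and Usp2 -0.37 in sedentary muscle (edgeR adjusted p = 0.349 each). Of the 7 muscle genes tied to the clock, Ucp3 had -0.83 and Tcap -0.36 (edgeR adjusted p = 0.337 and 0.470), which without sedentary control replicate 4 were -0.84 and -0.23. The 6 tested kinases and ligases ran from -0.09 to 0.13 in sedentary muscle, and Fbxl21 was not tested. Over the 40 further clock genes tested, 20 had positive values in sedentary muscle (median -0.0045) and 19 in fatigued muscle (median -0.011), near the shares over all genes.

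Between states more of these genes passed. Ppargc1a, which encodes a coactivator of RORs, was higher in fatigued muscle by 2.10 in controls and 2.05 after PBMT. Hk2 (0.90 and 1.26) and Crebbp (0.38 and 0.28) also rose, while Pdp1 (-0.83 and -0.95) and Dbp (-0.62 and -0.52) fell in both. Bhlhe40 (-0.63) fell and Cry2 (0.66) and Nfil3 (0.89) rose in controls as they did after PBMT, when Nfil3 was higher by 2.00. After PBMT alone Usp2 (0.66), Pdk4 (0.94) and Ucp3 (1.18) were called higher and Kat2b (-0.33) and Nampt (-0.25) lower, all with an edgeR adjusted p under 0.05. Calls in 1 of these comparisons and not the other do not show a difference between them.

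Genes of cell types other than fibers were examined in both kinds of comparison. The 9 genes of interstitial mesenchymal cells (Gsn the most abundant) had 0 positive log2 fold changes with PBMT in sedentary muscle, with a median of -0.23 and a summed level of 1524 ± 245 CPM in controls and 1228 ± 300 CPM in PBMT mice (SD, n = 6 each). The 9 genes of macrophages and myeloid cells (Lyz2 the most abundant) also had 0 positive, with a median of -0.59 and a sum of 81.6 ± 29.9 CPM in controls and 53.0 ± 13.6 CPM in PBMT mice (SD, n = 6 each). No gene of either list was at 0 in 12 or more mice. In fatigued mice after PBMT, where Clock was lower, 7 of 9 interstitial and 7 of 9 myeloid genes were called higher than in sedentary mice, against 14.1% of all genes, and the sums were 2365 ± 1014 and 104 ± 52.3 CPM (SD, n = 6 each). In controls, where Clock had -0.35, 7 of 9 interstitial and 8 of 9 myeloid genes were positive (medians 0.34 and 0.40), with 1 and 0 called higher, against 9.1% of all genes, and the sums of fatigued controls were 2102 ± 401 and 96.7 ± 26.5 CPM (SD, n = 6 each). With PBMT in fatigued muscle 9 of 9 and 8 of 9 were positive (medians 0.12 and 0.17), the other direction from sedentary muscle. Fatigued PBMT replicate 5 had the highest interstitial and myeloid sums of its group, at 4351 and 200 CPM. The next highest sums in that group were 2324 and 121 CPM. Whether the positive direction with PBMT in fatigued muscle holds without replicate 5 was not tested. The part of these cells in the results for Arntl, Clock, Npas2 and Rora was not tested. In whole muscle, fewer cells of a type and less RNA per cell cannot be told apart.

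How the activators vary together between mice of the same group was examined by correlating log2 CPM with the mean of each group taken off, over 24 mice and all 6 pairs of the 4 genes. Npas2 and Rora were negatively related, with r = -0.57 (permutation p = 0.00442, adjusted p = 0.0265 over 6 pairs) and rho = -0.41 (permutation p = 0.0583, adjusted p = 0.293). Within the projects r was -0.45 in sedentary and -0.72 in fatigued mice, and it was -0.50 without the 2 mice farthest from the median of Npas2. So mice with more Npas2 than their group tended to have less Rora, by r and not by rho, and without any of 4 single mice the adjusted p of r was above 0.05. Without sedentary control replicate 4 the r was -0.64.

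The other 5 pairs did not pass. Arntl and Rora had r = -0.37 (permutation p = 0.0714, adjusted p = 0.214) and rho = -0.35 (permutation p = 0.0975, adjusted p = 0.293), with r of -0.21 in sedentary and -0.53 in fatigued mice. Arntl and Npas2 had r = 0.37, which was 0.015 without the 2 farthest mice, and Arntl and Clock had r = 0.24, with -0.32 in sedentary and 0.41 in fatigued mice. Arntl and Npas2 had -0.13 and 0.57 in the same order. Clock and Rora had r = 0.23, with 0.62 in sedentary and -0.035 in fatigued mice, and Clock and Npas2 had 0.012, with -0.074 and 0.052. Apart from Npas2 and Rora, the 4 activators therefore showed no relation that the 24 mice could resolve. The values of a mouse share its library and scaling.

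Each activator was also set against 16 paralogs, repressors and D-box factors, 64 relations in all, relations chosen after seeing the data. By r, 13 passed an adjusted p of 0.05, 7 positive and 6 negative, and by rho 7 of the same 13 passed. How many of all genes would pass with each activator was not tested, so these counts do not set clock genes apart. With the length trend removed the same 13 passed by r, and without sedentary control replicate 4 there were 13, of which 12 were shared. All 4 relations of Arntl that passed were negative, those of Rora were all positive, and that of Clock was negative.

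Of the 10 repressors, 7 had a negative r with Arntl and 3 a positive r, Nr1d1 (0.14), Bhlhe40 (0.38) and Bhlhe41 (0.43, but -0.58 in sedentary and 0.65 in fatigued mice), and the 4 that passed were all negative. With Per3, Arntl had r = -0.76 (permutation p = 0.00025, adjusted p = 0.00533) and rho = -0.71 (permutation p = 0.00074, adjusted p = 0.0102), with r of -0.47 in sedentary and -0.89 in fatigued mice and -0.70 without the 2 farthest. With Ciart, which encodes a repressor of the BMAL1 pair, it had r = -0.64 (permutation p = 0.00131, adjusted p = 0.00996) and rho = -0.75 (permutation p = 0.0001, adjusted p = 0.0032), with r of -0.69 and -0.66 in the projects and -0.62 without the 2 farthest. Per2 gave r = -0.61 (permutation p = 0.0014, adjusted p = 0.00996) and rho = -0.69 (permutation p = 0.0008, adjusted p = 0.0102), with r of -0.72 and -0.65 in the projects and -0.53 without the 2 farthest. Cry2 gave r = -0.63 (permutation p = 0.00545, adjusted p = 0.0317) and rho = -0.56 (permutation p = 0.0121, adjusted p = 0.0775), but r was -0.05 in sedentary and -0.78 in fatigued mice, so that relation was seen in 1 project. Without the 2 farthest mice it was -0.57. Mice of a group with more Arntl thus had less Per2, Per3 and Ciart in both projects.

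Clock and Dbp had r = -0.71 (permutation p = 0.00007, adjusted p = 0.00448) and rho = -0.80 (permutation p = 0.00003, adjusted p = 0.00192). The r was -0.81 in sedentary and -0.67 in fatigued mice, and -0.75 without the 2 farthest. So the mice with more Clock than their group had less Dbp.

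Rora went with Per3 (r = 0.72, permutation p = 0.00018, adjusted p = 0.00533, and rho = 0.67, permutation p = 0.00071, adjusted p = 0.0102). It also went with Hlf (r = 0.64, permutation p = 0.00118, adjusted p = 0.00996, and rho = 0.61, permutation p = 0.00271, adjusted p = 0.0248). In the projects r was 0.68 and 0.80 for Per3 and 0.71 and 0.55 for Hlf, and without the 2 farthest mice 0.67 and 0.66. By r and not by rho, Rora also passed with Per2 (0.55), Cry1 (0.56), Nr1d2 (0.69) and Tef (0.67), and without the 2 farthest mice these r were 0.39, 0.44, 0.56 and 0.42. Per3 was therefore higher in mice of a group with more Rora and lower in those with more Arntl.

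The genes most like each activator were ranked over 11727 genes by the smaller of the r values of both projects (12 mice each, group means removed), and are given as a description. For Arntl they were Edem1 (0.85 in sedentary, 0.77 in fatigued mice), Aggf1 (0.76, 0.75) and Dyrk2 (0.77, 0.72), and the most opposite were Eif3j2 (-0.74, -0.81), Vdac1 (-0.89, -0.74) and Glrx3 (-0.72, -0.73). For Clock they were Usp8 (0.93, 0.92), Ralgapa1 (0.90, 0.90) and Ppp4r3b (0.88, 0.90), and the most opposite were Cuta (-0.87, -0.94), Gnb2 (-0.85, -0.87) and Anapc11 (-0.82, -0.82). None of these 12 genes is on the clock lists.

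For Npas2 the most like were Apaf1 (0.74 in sedentary, 0.73 in fatigued mice), Spata6 (0.68, 0.76) and Nrep (0.76, 0.67), and among the most opposite were Vapa (-0.76, -0.77) and Krr1 (-0.70, -0.84). For Rora the most like were Gpcpd1 (0.99, 0.94), Dnaja2 (0.93, 0.94) and Kcmf1 (0.92, 0.93), and the most opposite were Fscn1 (-0.88, -0.87), Rflnb (-0.87, -0.92) and Rftn1 (-0.92, -0.83). Rora had the closest companions and Npas2, with its low counts, the loosest. With the trend on transcript length removed, which was tried after seeing the data, each of these relations kept its sign, and Usp8 went from 0.93 to 0.78 with Clock in sedentary mice. Without that removal, Ciart ranked 7, Per2 9, Per3 114 and Cry2 2180 of 11727 among the genes most opposite to Arntl. Dbp ranked 181 among those most opposite to Clock. Among those most like Rora, Per3 ranked 148, Nr1d2 181, Cry1 314, Hlf 442, Per2 867 and Tef 980. Apart from Ciart and Per2 with Arntl, many other genes were thus closer.

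The promoters were read for the sequences through which clock factors act, in RefSeq windows (GRCm38.p6) from 250 bases before to 50 after each start, 7 windows for the 4 genes. On both strands, the RORE letters ANTAGGTCA were found in 1 of the 7, a window of Arntl, and in 0.661% of 32851 windows of all genes. With the eighth letter free (ANTAGGTNA) they were found in both Arntl windows and in 2.04% of all windows. Both forms were chosen after seeing the sequences. The shorter AGGTCA, which is also part of the RORE, was found in 1 of 3 Clock windows, in the Arntl window with the RORE, and in 16.3% of all windows. None of the 7 windows held the E-box CACGTG (7.15% of all windows) or the D-box TTATGNAA (3.38%), and the single windows of Npas2 and Rora held none of the motifs.

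The Arntl window with the RORE is printed because the gene of 1 activator there carries the sequence that the product of another, Rora, is known to bind. It is the forward strand of chr7:113207261-113207560, 5′ to 3′, with both matches in capitals, AGTAGGTTA at 113207503 to 113207511 and AGTAGGTCA at 113207539 to 113207547. A match describes the letters and does not show that a factor binds there.
Arntl: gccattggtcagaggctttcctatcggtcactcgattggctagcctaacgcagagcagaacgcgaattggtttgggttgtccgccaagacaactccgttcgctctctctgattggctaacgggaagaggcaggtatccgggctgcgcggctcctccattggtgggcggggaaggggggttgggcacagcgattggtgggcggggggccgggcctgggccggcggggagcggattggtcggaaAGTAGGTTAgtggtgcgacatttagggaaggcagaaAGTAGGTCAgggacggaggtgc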

How the data were processed

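The values as deposited by the authors are a whole-number count of reads per gene for each mouse, without normalization. The libraries were selected for poly(A), strand-specific (directional) and read from both ends. The submitters' processing notes name Trimmomatic, STAR 2.7.1a, Picard 2.20.4, StringTie 2.0.4, featureCounts 1.6.0 and HTSeq on GRCm38. Which tool made the counts, the strand setting and the annotation release are not given in the sources used here. Of 55487 identifiers, 55141 matched GENCODE M21, which gave symbols, coordinates and exon lengths. Antisense genes share 33 exon bases with Arntl (Gm45355, at most 6 counts) and 82 with Rora (Gm15511, at most 3). Between any pair of mice the chi-square per degree of freedom was at least 11.3, far above the value near 1 of the same library counted again.

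PBMT was compared with control within each project in edgeR 4.0.16 (R 4.3.3): TMM, filterByExpr with a minimum count of 10, robust quasi-likelihood tests, two-sided, with p-values adjusted over all genes tested by the Benjamini-Hochberg method (threshold 0.05). The average, the difference (fatigued minus sedentary) and the comparisons of state came from a fit of group means to all 24 mice, so they share mice with the rest. Logarithms of CPM used a prior count of 2. Single genes also had an exact permutation test of 6 against 6 mice (two-sided, smallest p = 0.00216), and correlations by 100000 permutations within groups. The p-values measure the spread between mice as deposited. The tests were also tried on simulated data, of which no results are given here.

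The genes named are the 4 activators, paralogs, repressors and D-box factors of the clock lists, genes of the other clock lists past a threshold, and up to 3 genes most like and most opposite to each activator. Counts and adjusted p-values are over the whole lists, of which some genes are not named. Activators and lists were chosen with earlier results of these data known. Marker lists cover fast and slow fibers, satellite, interstitial, endothelial, myeloid, erythroid, fat, nerve, tendon and skin cells.

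The alternatives were omitting the filter, requiring 10 counts in each mouse, scaling by DESeq2 size factors, the whole of DESeq2 1.42.0 at default settings, limma 3.58.1 voom with sample quality weights, removal of the trend on exon length (lowess, span 0.3), the replicate number as a block, both of these together, all 24 mice in a single fit, the longest transcript as length, and leaving out each mouse in turn. Chosen after seeing the data were the length trend removed from correlations, the correlations with clock genes without sedentary control replicate 4, other scalings of the counts of mice past the other group, and the RORE letters, which were first searched with 1 more A in front and matched the same Arntl windows. Python 3.11.15 with numpy 2.4.6, scipy 1.17.1, pandas 2.3.3 and matplotlib 3.10.9 was used for the rest.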

Additional observations from a re-analysis of the deposited data

Results flagged for a closer look

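In 3 of its 4 groups Rora had a lowest mouse far from the other 5. In log2 CPM the gap to the next mouse was a share of 0.798 of the group's whole range in sedentary PBMT mice (replicate 2, 85.8 CPM), 0.642 in fatigued controls (replicate 3, 95.3 CPM) and 0.636 in fatigued PBMT mice (replicate 5, 100 CPM). Each is past the critical value of Dixon for 6 samples. Chance gives such a gap in about 1 in 20 groups, and 20 groups were looked at, of which 4 had one. Sedentary PBMT replicate 2 decides the sign of Rora between fatigued and sedentary mice after PBMT, which was 0.03 with it and -0.07 without it.

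The other of these 4 was the share of counts on the mitochondrial chromosome in sedentary controls, where replicate 4, at 3.25%, left a gap of 0.896 of the range. The cause was not tested.

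The PBMT effect on Nfil3 was -0.96 in sedentary and 0.14 in fatigued muscle, a difference of 1.11 in log2 fold change that edgeR called (adjusted p = 0.0037). With the replicate block and the length trend removed it was 1.07 and not called (edgeR adjusted p = 0.115).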

How the results depend on the processing

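The log2 fold changes of the 4 activators were refitted 674 times. In 657 refits the direction and the side of the threshold were as reported, in 7 the value newly passed the threshold, in 0 it no longer did and in 10 the sign turned. For the other clock genes 1442 of 1478 refits were as reported, 15 newly passed and 21 no longer did. Arntl in sedentary muscle passed with DESeq2 (0.54) and limma voom (0.48), which gives 1 activator called with either. Between fatigued and sedentary controls Clock passed with limma voom (-0.44), with the length trend removed (-0.43) and with that and the replicate block (-0.42), 1 activator called each time. It ran from -0.43 to -0.30 without each mouse in turn, with 0 to 1 activators called, and passed without sedentary control replicate 4 (-0.43) and without fatigued PBMT replicate 2 (-0.34). The difference of the PBMT effect turned positive for Arntl (0.18) and Npas2 (0.0326) with limma voom, and for Rora with the length trend removed (0.0177) and with that and the block (0.0189). Without each mouse that difference ran from -0.20 to 0.0375 for Arntl, which was positive without fatigued control replicate 3 (0.0375) or 5 (0.0067) or fatigued PBMT replicate 1 (0.010), and from -0.87 to 0.12 for Npas2, which was positive without fatigued control replicate 3. Clock in fatigued muscle ran from -0.0513 (without PBMT replicate 2) to 0.21, and Rora between fatigued and sedentary mice after PBMT from -0.0738 (without sedentary PBMT replicate 2) to 0.10. The correlation of Clock and Npas2 ran from -0.12 to 0.13 without each mouse, and that of Clock and Rora was -0.13 with the length trend removed. For Npas2 and Rora r ran from -0.64 to -0.47, with an adjusted permutation p above 0.05 without sedentary control replicate 6 (0.0793), sedentary PBMT replicate 2 (0.119), fatigued control replicate 3 (0.180) or fatigued PBMT replicate 5 (0.178). The cause was not tested. With at least 10 counts in every sample Npas2 was not tested, and its depth of 2 to 88 counts limits what can be seen.

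With the replicate number as a block, Clock had -0.60 between fatigued and sedentary mice after PBMT and 0.36 with PBMT in sedentary muscle, Arntl 0.53 and Npas2 1.36 there, all on the same side of the threshold as without it. Between mice of equal number the median correlation was 0.0183 in sedentary and 0.268 in fatigued mice, against -0.0206 and -0.0697 between other mice. It was above 0.1 in 2 of 6 and 4 of 6 pairs, and a mouse was most like its own number in 1 and 3 of them.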

Other observations

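Markers of 7 other cell types, not all of those listed, were summed for context, in CPM as mean ± SD of 6 mice. Tendon and cartilage genes (7, Fmod the most abundant) were at 158 ± 39.7 in sedentary controls, 162 ± 31.4 in sedentary PBMT mice, 320 ± 121 in fatigued controls and 380 ± 252 in fatigued PBMT mice. Slow fiber genes (7, Myl3) were at 97.4 ± 17.4, 94.9 ± 13.6, 102 ± 33.3 and 129 ± 45.0 in the same order. Endothelial genes (8, Cdh5) were at 380 ± 18.8, 386 ± 68.7, 436 ± 59.6 and 447 ± 39.0. Satellite cell genes (6, Cdh15) were at 29.6 ± 4.74, 32.1 ± 3.49, 34.0 ± 3.28 and 34.3 ± 2.65. Adipocyte genes (6, Fabp4) were at 239 ± 38.3, 234 ± 46.9, 251 ± 40.6 and 261 ± 63.4. Erythrocyte genes (5, Hbb-bs) were at 102 ± 31.7, 98.6 ± 29.5, 86.4 ± 33.8 and 88.0 ± 29.7. Skin keratinocyte genes (8, Krt10) were at 4.47 ± 1.63, 10.0 ± 11.7, 3.75 ± 1.31 and 3.24 ± 0.837. In sedentary PBMT mice replicates 4 and 2 were at 32.6 and 12.7 and the other 4 from 3.09 to 4.34. At 0 in 12 or more of the 24 mice were Krt1, Krt5, Krt14, Krt15 and Lor. The part of these cells in the levels of the clock activators was not tested.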
